A study of Mus musculus with 6 samples.

Results

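The natriuretic peptide system was followed here through 8 genes: the peptide precursors Nppa, Nppb and Nppc, the receptors Npr1, Npr2 and Npr3, and the proteases Corin and Furin. They were taken by symbol from a table of 25901 rows, each a gene or an assembled locus, and each of the 8 symbols matched 1 row. The table gives RNA levels in whole hearts of 6 mice, 3 of them wild-type (WT2368, WT2379, WT2378) and 3 mutant, called SRAKO (SRAKO2365, SRAKO2371, SRAKO2372). The name stands for loss of the steroid receptor RNA activator SRA, whose gene is Sra1. All 6 mice, the WT included, were given isoproterenol for 4 weeks, a drug that stimulates beta-adrenergic receptors and brings on cardiac hypertrophy. The mutant allele, strain, age and sex are not given in the sources used here, and untreated hearts were not analysed here. Levels are FPKM, fragment numbers scaled by transcript length and sequencing depth, which can therefore be compared between genes. In whole-heart RNA, fewer cells of a type and less RNA per cell cannot be told apart.

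Natriuretic peptides are hormones that the heart releases when its walls are stretched. Nppa encodes the precursor of atrial natriuretic peptide, made chiefly by atrial muscle and again by ventricular muscle under load, and Nppb encodes the precursor of B-type natriuretic peptide, a clinical marker of heart failure. The membrane protease corin cleaves the Nppa product, furin is a proprotein convertase that cleaves the Nppb and Nppc products, and both mature hormones act on Npr1, a receptor with its own guanylyl cyclase that raises cGMP, lowers blood pressure and restrains hypertrophy. C-type natriuretic peptide, from Nppc, acts on the sister receptor Npr2, and Npr3 mainly clears all of these peptides from the circulation.

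Nppb and Nppa are neighbours in the genome, and the 250 bases before each start site are shown. Their RNAs were highest and lowest in the same hearts (below). The median of all tested rows was highest and lowest in those hearts too, and shared control was not tested. Nppb lies on chromosome 4 from 147985788 to 147987205 and Nppa from 148000722 to 148002079, both on the plus strand of GRCm38, with 13517 bases from the end of the first to the start of the second. The windows are RefSeq's, read on the plus strand of GRCm38.p6 at chr4:148000472-148000721 for Nppa and chr4:147985650-147985899 for Nppb. Capitals mark matches, on either strand, to the letters of 5 motifs known from cardiac promoters: GATAA for GATA factors, AAGTG for NKX2-5, GGTGTGA for T-box factors, GGAATG for TEAD factors and TATAAA for the TATA box.
Nppa: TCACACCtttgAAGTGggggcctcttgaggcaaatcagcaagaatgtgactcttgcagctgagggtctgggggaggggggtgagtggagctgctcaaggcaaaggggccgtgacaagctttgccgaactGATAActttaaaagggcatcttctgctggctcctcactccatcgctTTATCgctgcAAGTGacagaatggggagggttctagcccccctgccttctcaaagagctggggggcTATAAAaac
Nppb: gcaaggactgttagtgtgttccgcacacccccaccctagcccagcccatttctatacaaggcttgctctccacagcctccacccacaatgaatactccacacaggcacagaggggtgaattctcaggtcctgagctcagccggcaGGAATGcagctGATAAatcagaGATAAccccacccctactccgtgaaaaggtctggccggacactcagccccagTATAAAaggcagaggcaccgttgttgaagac
GATAA occurred 2 times in each window, at -121 and -75 from the Nppa start and at -94 and -83 from the Nppb start, counted to the leftmost base of the match. The Nppa window also held AAGTG 2 times and GGTGTGA 1 time, the latter at -250 beside the first AAGTG at -239, and neither was found in the Nppb window. GGAATG was found in the Nppb window, at -105, and not in that of Nppa. Among all 32851 RefSeq windows of this length, 22.6% held GATAA, 40.7% AAGTG, 3.33% GGTGTGA, 12.6% GGAATG and 12.4% TATAAA, so that only the T-box letters were rare. These are matches of letters and not measured binding sites. The GENCODE model of Nppb starts inside the RefSeq window, so that annotations differ on where this RNA begins. TATAAA was at -9 in the Nppa window and at -31 in the Nppb window, so distances from the Nppa and Nppb starts may not be comparable.

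Sra1, the gene that the SRAKO label points to, was at 1.78 to 2.05 FPKM in the SRAKO hearts and at 4.23 to 6.31 in the WT hearts, so the labels and the data went the same way. The hearts differed in RNA that poly(A) selection should remove. Rn7sk, a small nuclear RNA, was at 242 FPKM in WT2368 and 114 in SRAKO2371, against 2.12 to 15.1 in the other 4 hearts. The cardiac tissue label fitted its markers: ventricular Myl2 stood between 1188 and 1601 FPKM, atrial Myl7 between 593 and 1195, endothelial Pecam1 between 30.2 and 47.4 and smooth muscle Acta2 between 122 and 185. The pacemaker channel gene Hcn4 was between 1.46 and 2.91 and the fibroblast receptor gene Pdgfra, in a row with Mir7025, between 2.95 and 4.05. Adipoq, a fat cell gene, was at 17.5 in SRAKO2371 and between 2.93 and 7.17 elsewhere. WT2368 and SRAKO2371 therefore stood apart, and the results below are given without them where that matters.

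Nppa was among the most abundant RNAs of these hearts, and its WT mean rested on 1 heart. The WT hearts WT2368, WT2379 and WT2378 had 1651, 6576 and 2469 FPKM. SRAKO2365, SRAKO2371 and SRAKO2372 had 2424, 1829 and 2436. WT2379 stood 3.04-fold above the mean of the other 5 hearts, and apart from it the genotypes overlapped, with WT2368 lowest of all. By its mean over 6 hearts Nppa ranked 18 among the 25901 rows, and it made up 0.278% to 1.27% of the summed FPKM of a heart. The WT mean was 3565 ± 2639 FPKM and the SRAKO mean 2229.8 ± 347 (SD, n = 3 per genotype), and the log2 difference (of log2(FPKM + 1), with WT subtracted from SRAKO) was -0.44 with a 95% interval from -1.48 to 0.61 (limma, Benjamini-Hochberg adjusted p = 0.999). Without WT2379 the difference turned to 0.13 (limma, adjusted p = 0.995), and without WT2368 it grew to -0.87 (limma, adjusted p = 0.719). With hearts weighted by their fit, which weights WT2368 least, it was -0.84.

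Nppb was highest and lowest in the same hearts as Nppa, over a narrower range. WT2368, WT2379 and WT2378 had 67.7, 134 and 90.6 FPKM. The values of SRAKO2365, SRAKO2371 and SRAKO2372 were 99.7, 80.1 and 101. WT2379 was again highest and WT2368 lowest, SRAKO2371 second lowest as for Nppa, and the genotypes overlapped. The means were 97.3 ± 33.4 and 93.7 ± 11.9 (SD, n = 3 per genotype), a log2 difference of -0.01 with an interval from -0.55 to 0.54 (limma, Benjamini-Hochberg adjusted p = 0.999). Nppb ranked 279 of 25901, and the mean of Nppa was 30.3-fold that of Nppb. Without WT2379 the Nppb difference was 0.25, without SRAKO2371 0.10 and without WT2368 -0.24, so its sign was not fixed. The median log2(FPKM + 1) of all tested rows was also lowest in WT2368, at 2.24, and highest in WT2379, at 2.38. In the other hearts it was 2.33 to 2.36. The share of all rows with this order was not counted. The order, here and for the genes below, is therefore not shown to be particular to them.

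The balance of the peptides was nearly the same in 5 hearts. Nppa was 24.4-fold Nppb in WT2368, 27.3-fold in WT2378, 24.3-fold in SRAKO2365, 22.8-fold in SRAKO2371 and 24.0-fold in SRAKO2372, but 49.2-fold in WT2379. On the log2 scale the ratio averaged 4.98 ± 0.55 in WT against 4.55 ± 0.05 in SRAKO (SD, n = 3 per genotype), a difference of -0.43 (exact two-sided permutation test p = 0.2, 0.45 after Benjamini-Hochberg adjustment over the 3 ratios tested), and -0.12 without WT2379. WT2379 thus differed from the rest in the proportion of Nppa as well as in its amount. Nppc, the C-type peptide gene on chromosome 1 (86666291 to 86670571, minus strand), was barely detected. It was listed at 0 in 4 hearts, at 0.0538 FPKM in WT2378 and at 0.0508 in SRAKO2371. Those values amount to 568 and 572 aligned bases over its 1042-base transcript, a total inferred from the spacing of weak values. The commonest total among weak RNAs, 566 to 568 bases per heart, was about the same, so each value stands for very few reads and no comparison of Nppc was possible at this depth.

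**Figure D1:**
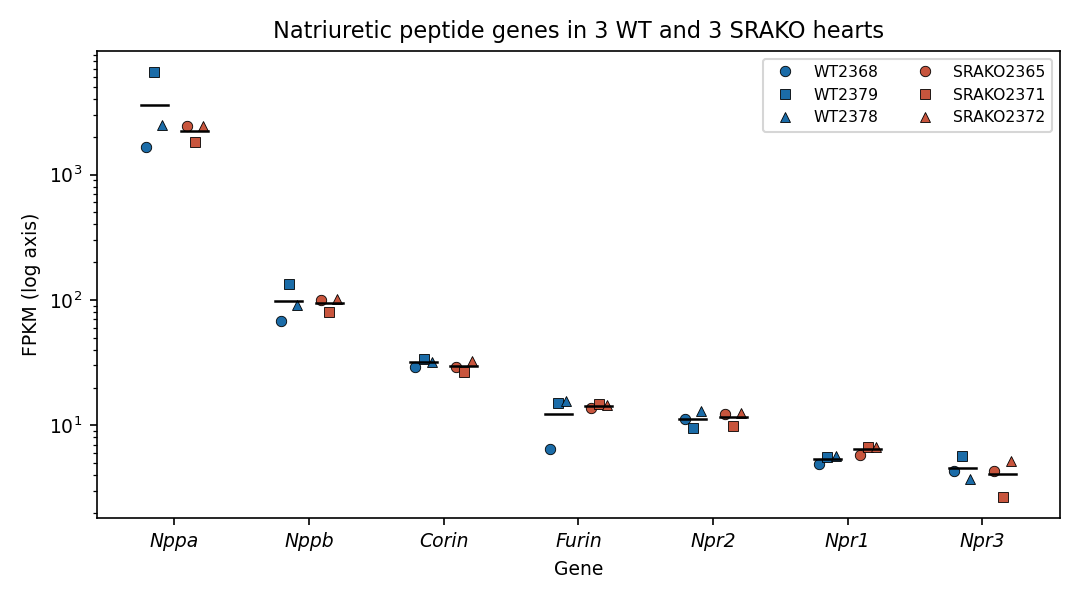
FPKM of the 7 genes above the detection filter (log axis) in each heart, blue for WT and red for SRAKO, with horizontal bars at the group means. WT2379 stands above the other hearts for Nppa, at 6576, WT2368 below them for Furin, at 6.42, and the 2 colours separate for Npr1 alone.

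A transcript that overlaps Nppa on the opposite strand was highest and lowest in the same hearts. Gm13054, annotated as antisense on the minus strand from 148001091 to 148004014, shares 989 bases with Nppa. It had 2.43, 11.1 and 4.88 FPKM in WT2368, WT2379 and WT2378 and 5.37, 5.19 and 5.12 in SRAKO2365, SRAKO2371 and SRAKO2372, between 0.147% and 0.284% of Nppa. As for Nppa, WT2379 was highest and WT2368 lowest. The labels do not say that strand was used in counting, and reads of an RNA and its antisense partner cannot be told apart without it.

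The atrial genes Myl7 and Sln, like Nppa, were highest in WT2379 and lowest in WT2368, while Bmp10 was highest in WT2379 and lowest in SRAKO2371. Myl7, the atrial regulatory light chain, was at 593, 1195 and 920 FPKM in WT2368, WT2379 and WT2378 and at 721, 895 and 757 in SRAKO2365, SRAKO2371 and SRAKO2372. Sln, the atrial calcium pump inhibitor sarcolipin, was at 77.3, 243 and 155 and at 138, 144 and 119. Bmp10, an atrial growth factor, was at 94.0, 254 and 97.5 and at 133, 8.15 and 83.1. SRAKO2371 also had the lowest Nppa and Nppb of the SRAKO hearts. Of the 14 atrial markers 13 passed the filter, 10 lower and 3 higher in SRAKO, with a median log2 difference of -0.18 against 0.01 over all tested rows. None was called, and 2 had an unadjusted p under 0.05, both lower. In the same 2 of 13, the potassium channel genes Kcnj3 and Kcnj5, every SRAKO heart lay below every WT heart, as it did in 3.76% of all tested rows. Kcnj3 was at 2.19, 1.73 and 3.04 FPKM against 3.32, 3.53 and 3.26, and Kcnj5 at 9.91, 7.79 and 8.56 against 11.9, 11.6 and 9.99. The summed FPKM of the 14 markers ran from 3515 to 5081 in WT and from 4015 to 4154 in SRAKO, and no marker was at 0 in all hearts. Most of it was Myh6, at 2393 to 2745 FPKM. Myh6 is not confined to atrial muscle, so the sum does not measure atrial tissue. It is also 1 of the 13 markers averaged below. Bmp10 is another, and its 8.15 FPKM in SRAKO2371 lowers the marker mean of that heart. Without WT2379 the median was 0.07 and without WT2368 it was -0.42. Nppa set against the mean of the 13 markers was still highest in WT2379, at 6.58 on the log2 scale against 5.33 to 5.79 in the other 5 hearts, and differed by -0.17 between genotypes (exact two-sided permutation test p = 0.9, adjusted p = 0.9), with 0.20 when WT2379 was left out and -0.43 when WT2368 was. The part of atrial tissue in the Nppa values was not tested further.

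The 5 profiles closest to Nppa were those of Lgals3, Mlana, Rcan1, Dnajc5 and Hbegf. Likeness was the root mean square difference of log2(FPKM + 1) over the 6 hearts after each row was centred on its own mean, and it was searched over 8918 other tested rows with a single symbol. The nearest was Lgals3, the lectin galectin-3, at 0.19, with 21.0 FPKM in WT2379 and 6.32 to 11.4 in the other hearts. Next came Mlana at 0.23, Rcan1, a calcineurin target and regulator, at 0.24, Dnajc5 at 0.24 and the EGF-family ligand gene Hbegf at 0.24. Rcan1 had 45.2 FPKM in WT2379 and 12.8 to 20.4 in the others, and Hbegf 16.1 against 3.12 to 4.91. All 5 were highest in WT2379, which follows from how they were chosen, because Nppa itself peaks there. A value at least 2-fold above every other heart was rare: WT2379 had it in 15 of the 10201 tested rows, and the other hearts in 2 to 26 rows each.

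**Figure D2:**
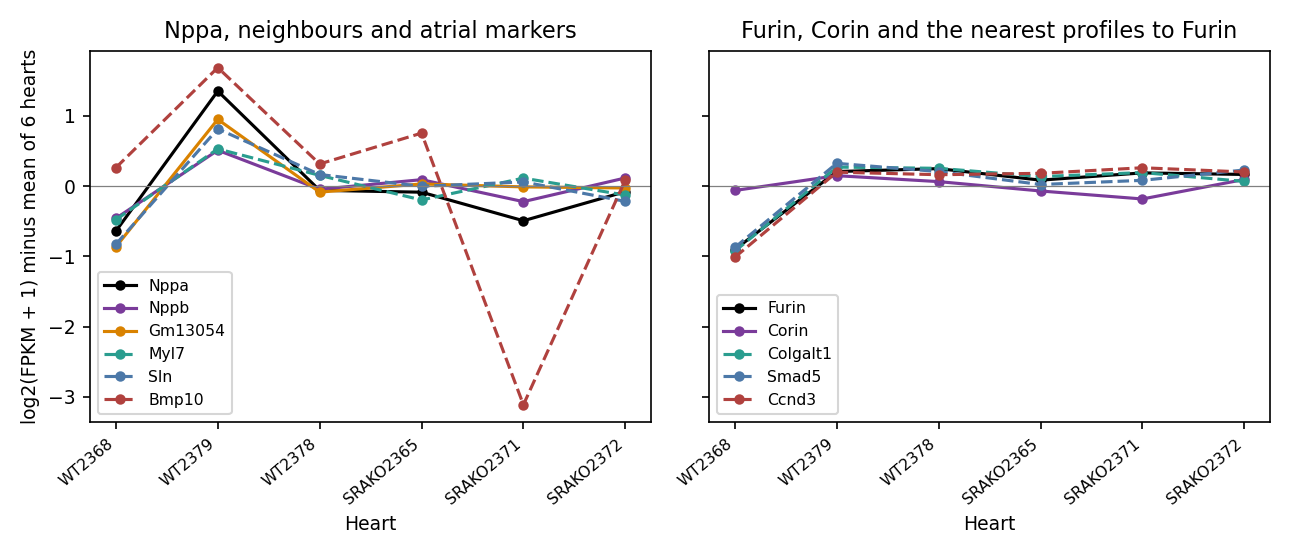
Each line is a gene, drawn as log2(FPKM + 1) minus its own mean over the 6 hearts on the vertical axis, with the hearts along the horizontal axis and lines only to guide the eye. At left Nppa, Nppb, Gm13054, Myl7, Sln and Bmp10 peak in WT2379 and all but Bmp10 are lowest in WT2368; at right Furin and its nearest profiles dip in WT2368 while Corin does not.

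Npr1, the receptor for the Nppa and Nppb hormones, was the single member of the group whose genotypes did not overlap. WT2368, WT2379 and WT2378 had 4.91, 5.56 and 5.67 FPKM and SRAKO2365, SRAKO2371 and SRAKO2372 had 5.81, 6.76 and 6.74. All 3 SRAKO hearts thus lay above the highest WT heart, though SRAKO2365 by little. The WT mean was 5.38 ± 0.408 FPKM and the SRAKO mean 6.44 ± 0.544 (SD, n = 3 per genotype), or 119.7% of WT. The log2 difference was 0.22 with a 95% interval from -0.01 to 0.45, and it did not pass limma's test (unadjusted p = 0.0601, Benjamini-Hochberg adjusted p = 0.999). Permuting the genotypes of the 6 hearts gave an exact two-sided p of 0.1, which is the lowest this design can reach. In the series 437 of 10201 tested rows, 4.28%, likewise had every SRAKO heart above every WT heart, and 8.05% were separated in either direction. Its locus is chromosome 3, 90450591 to 90465866, minus strand.

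Npr1 is made by vascular smooth muscle, endothelium and fat as well as by heart muscle, and the markers of smooth muscle, endothelium and fat are given beside it. None of them was called, and 53.5% of all tested rows were higher in SRAKO. Of 10 tested smooth muscle and pericyte markers 8 were higher in SRAKO, with a median log2 difference of 0.12. Their summed FPKM was 304 to 385 in WT and 370.4 to 377 in SRAKO. Without overlap 2 of the 10 were higher and 1 lower, as were 4.28% and 3.76% of all tested rows. Myh11, the smooth muscle myosin with the smallest p of the list, was at 10.2 to 14.4 in WT and 15.6 to 17.1 in SRAKO. Mylk was the other higher gene, and the lower one was Abcc9, at 16.12 to 17.18 in WT and 14.31 to 16.07 in SRAKO. Fat cell markers were higher in 9 of 9, with overlapping sums of 155 to 214 in WT and 158 to 480 in SRAKO, the highest in SRAKO2371. Endothelial markers had 4 of 10 higher with a median of -0.01 and sums of 292 to 301 in WT and 307 to 321 in SRAKO. Of these 10 markers 1, Esam, was higher without overlap, as were 4.28% of all tested rows. It was at 15.9 to 16.7 in WT and 17.56 to 17.68 in SRAKO. Without Fabp4, which fat cells also make, the endothelial sums overlapped, at 193 to 209.7 in WT and 189 to 209.02 in SRAKO. No marker of these 3 lists was at 0 in all hearts, and their part in the Npr1 difference was not tested. Without WT2368 the Npr1 difference was 0.17, without SRAKO2365 it was 0.28, and leaving out WT2368 together with SRAKO2371 gave 0.13.

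Npr2 and Npr3 did not separate the genotypes. Npr2, the receptor for C-type natriuretic peptide, was the most abundant of the 3 receptors. It had 11.1, 9.58 and 13.0 FPKM in WT2368, WT2379 and WT2378 and 12.3, 9.86 and 12.6 in SRAKO2365, SRAKO2371 and SRAKO2372, so that each genotype had hearts near 10 and hearts above 12. Its log2 difference was 0.04 with an interval from -0.28 to 0.37 (limma, Benjamini-Hochberg adjusted p = 0.999). Npr3, the clearance receptor, had 4.30, 5.73 and 3.75 in the WT hearts and 4.34, 2.70 and 5.19 in the SRAKO hearts. SRAKO2371 held the lowest value and WT2379 the highest, a 2.12-fold range. The Npr3 difference was -0.16 with an interval from -0.64 to 0.33 (limma, adjusted p = 0.999), and it was 0.06 without SRAKO2371.

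The clearing receptor set against the signalling one was lowest in SRAKO2371. Npr3 was 0.876-fold, 1.03-fold and 0.662-fold Npr1 in WT2368, WT2379 and WT2378, and 0.748-fold, 0.399-fold and 0.770-fold in SRAKO2365, SRAKO2371 and SRAKO2372. The genotypes overlapped. On the log2(FPKM + 1) scale the ratio differed by -0.38 (exact two-sided permutation test p = 0.3, 0.45 after adjustment over the 3 ratios), and by -0.13 without SRAKO2371. By mean level over 6 hearts Npr2 at 11.4 FPKM stood above Npr1 at 5.91 in every heart, while Npr1 and Npr3 at 4.34 overlapped across hearts. The loci are chromosome 4, 43631935 to 43651244, plus strand, for Npr2 and chromosome 15, 11839896 to 11907287, minus strand, for Npr3.

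Corin, which encodes the protease that activates atrial natriuretic peptide, varied least of the 7 expressed genes. WT2368, WT2379 and WT2378 had 29.2, 34.0 and 32.0 FPKM and SRAKO2365, SRAKO2371 and SRAKO2372 had 29.1, 26.8 and 32.7. From lowest to highest the range was 1.27-fold, and the genotypes overlapped. Its log2 difference was -0.10 with an interval from -0.37 to 0.16 (limma, Benjamini-Hochberg adjusted p = 0.999), an interval that leaves out a change of 1.5-fold or more on this scale. WT2379, with 3.04-fold the Nppa of the other hearts, had the highest Corin too, but by a small margin over SRAKO2372. Its locus is chromosome 5, 72300025 to 72504473, minus strand, and by its mean it ranked 821 of all rows.

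Furin was even in 5 hearts and low in 1. WT2379 and WT2378 had 15.02 and 15.5 FPKM, the SRAKO hearts SRAKO2365, SRAKO2371, SRAKO2372 had 13.7, 14.8 and 14.6, and in WT2368 it was at 6.42, which is 43.6% of the mean of the others. The group means of 12.3 ± 5.10 and 14.4 ± 0.574 (SD, n = 3 per genotype) gave a log2 difference of 0.30 with an interval from -0.37 to 0.96 (limma, Benjamini-Hochberg adjusted p = 0.999). Without WT2368 the difference turned to -0.08. The rows closest to Furin in profile were Colgalt1, a collagen galactosyltransferase gene, at a root mean square difference of 0.05, then Smad5 at 0.08, Ccnd3 at 0.08, Arl4d at 0.10 and Atp6ap1 at 0.11. Colgalt1 had 5.23 FPKM in WT2368 and 11.4 to 13.3 in the other hearts. These rows were chosen for likeness to Furin, so their low values in WT2368 follow from the choice. WT2368 was at or below 50% of every other heart in 51 of 10201 tested rows, against 20 to 32 rows for each of the other hearts. WT2368 was also the heart with the most Rn7sk, and whether its low Furin is related to that was not tested. The locus of Furin is chromosome 7, 80388585 to 80405436, minus strand.

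Of the 7 members tested, 4 were lower and 3 higher in SRAKO (53.5% of all tested rows were higher), with a median log2 difference of -0.01 against 0.01 over all tested rows. None was called by limma with Benjamini-Hochberg adjustment, where 2 of 10201 rows in the series were called (0.0196%), and none had an unadjusted p under 0.05, where 3.46% of rows did. The latter count depended on the setting: the unadjusted p of Npr1 in limma was under 0.05 in 4 of 16 alternatives, at 0.0339 with medians aligned, 0.0344 after quantile normalization, 0.0472 without SRAKO2365 and 0.0479 with no filter. The groups did not overlap in 1 of the 7, near the 8.05% of all rows. The intervals were narrowest for Npr1 and Corin and widest for Nppa and Furin, each of which had 1 WT heart far from the others.

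**Figure D3:**
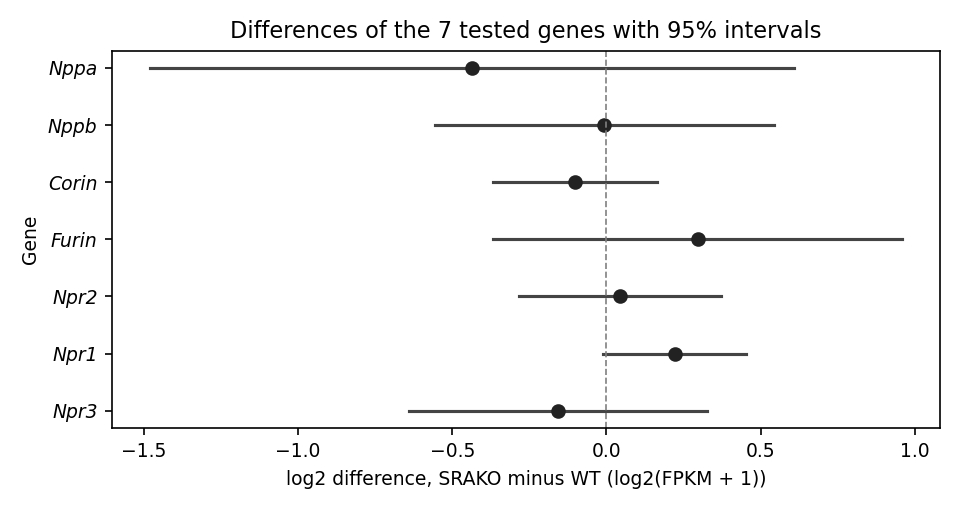
Points are log2 differences, SRAKO minus WT, of the 7 tested genes on the log2(FPKM + 1) scale (horizontal axis), and lines are 95% intervals from limma. Every interval includes 0, and that of Npr1 runs from -0.01 to 0.45.

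The wider pathway was described through 5 lists of 77 symbols in all, of which 71 were in the table and 44 passed the filter. In SRAKO 23 of these 44 genes lay above WT and 21 below, with a median log2 difference of 0.01. None was called, and none had an unadjusted limma p under 0.05 or groups that did not overlap. Of all tested rows 0.0196% were called, 3.46% had such a p and 8.05% had such groups. Genes of cGMP signalling below the receptors (9 tested) had 5 higher and 4 lower with a median of 0.03. At the ends of the list by p were Gnai1, an inhibitory G protein subunit of the kind Npr3 couples to, at 0.840 ± 0.229 FPKM in WT and 0.997 ± 0.141 in SRAKO, and Rgs2, a regulator of G protein signalling, at 6.07 ± 0.632 and 5.84 ± 0.672. Phospholamban, Pln, a brake on the calcium pump and a target of cGMP-dependent kinase, was the most abundant at 184 ± 19.0 and 188 ± 11.6.

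Enzymes that break down or export cGMP (7 tested) had 5 higher and 2 lower with a median of 0.03. Pde2a, a phosphodiesterase that cGMP itself activates and whose row also holds Arap1 and Gm45837, was at 7.17 ± 0.986 and 7.70 ± 0.475, and Pde1c at 1.67 ± 0.131 and 1.59 ± 0.196. Pde9a, which degrades the cGMP that natriuretic peptides raise, was at 1.81 ± 0.396 and 1.85 ± 0.0734. Other cyclase genes and the nitric oxide synthase that feeds them (3 tested) had a median of 0.01, with Gucy1b3 at 4.04 ± 0.499 and 4.15 ± 0.165 and Nos3 at 10.9 ± 1.72 and 10.4 ± 0.176. These values lay within the spread between hearts.

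Genes of peptide processing, secretion and breakdown (7 tested) had 3 higher and 4 lower with a median of -0.03. Ece1, an endopeptidase of vasoactive peptides, was at 26.1 ± 4.47 in WT and 30.6 ± 1.70 in SRAKO. Pam, the amidating enzyme that is a major membrane protein of atrial granules, was at 136 ± 48.9 and 108 ± 6.61. Like Nppa it was highest in WT2379, at 188 FPKM, and lowest in WT2368, at 91.0. Pcsk6, the convertase that activates corin, shares a row with Snrpa1 and was at 8.46 ± 1.41 and 9.54 ± 0.516. The insulin-degrading enzyme gene Ide, whose product also degrades atrial natriuretic peptide, was at 7.41 ± 1.06 and 7.196 ± 0.493. Transcription factors known from the Nppa and Nppb promoters (18 tested) had 8 higher and 10 lower with a median of -0.03. Myocd, the serum response factor coactivator myocardin, was at 5.11 ± 0.735 and 4.09 ± 0.284 (log2 difference -0.26; limma, adjusted p = 0.999), and Tbx3, a T-box repressor of the conduction system, at 1.68 ± 0.256 and 2.13 ± 0.284 (0.22; adjusted p = 0.999). Factors of the families whose letters are marked in the promoters had overlapping groups, with Gata4 at 18.6 ± 4.29 and 18.6 ± 2.02, Nkx2-5 at 19.4 ± 1.52 and 19.0 ± 0.605 and Tbx5 at 17.4 ± 4.01 and 18.4 ± 0.362. Tead1 was the most variable of them, at 1.07, 0.243 and 4.54 FPKM in WT2368, WT2379 and WT2378 and at 0.115, 1.598 and 0.145 in SRAKO2365, SRAKO2371 and SRAKO2372, a log2 difference of -0.70 (limma, Benjamini-Hochberg adjusted p = 0.999).

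**Figure D4:**
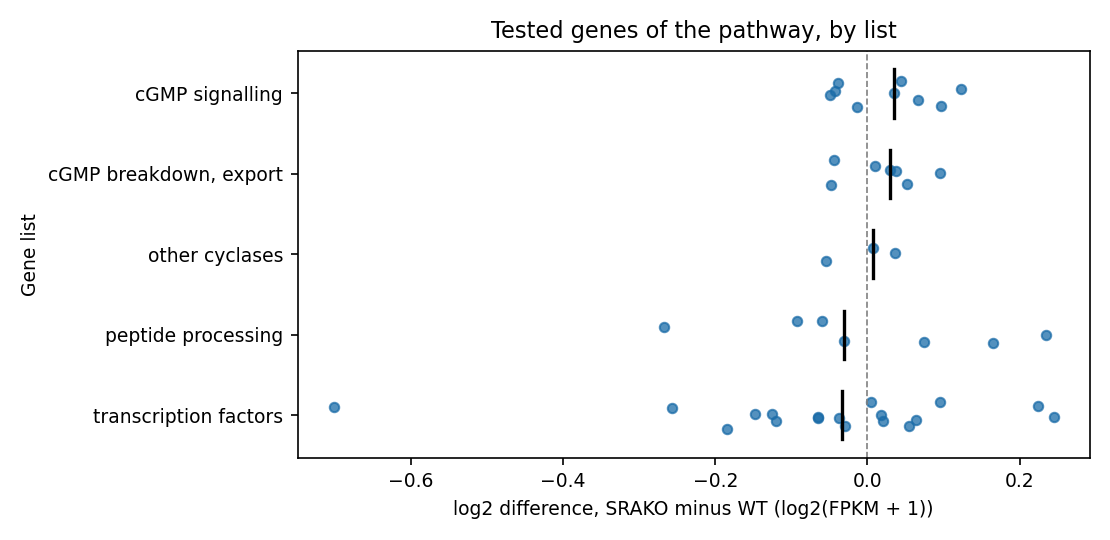
Each point is a tested gene placed by its log2 difference, SRAKO minus WT (horizontal axis), in 5 lists, with a black bar at the list's median and random vertical scatter. The medians lie between -0.03 and 0.03.

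Some genes of the pathway sat below the filter yet above 0 in every heart, 21 of the 27 that did not pass. In 5 of these 21, or 23.8%, the genotypes did not overlap, where 10.4% of all such weak rows were separated. They are named here because of these values. Pde5a, the cGMP phosphodiesterase that sildenafil inhibits, was at 0.312, 0.312 and 0.317 FPKM in the WT hearts and at 0.388, 0.455 and 0.453 in the SRAKO hearts, 138% of WT. Prkg1, the cGMP-dependent protein kinase, was lower, at 0.141, 0.147 and 0.171 against 0.0846, 0.0960 and 0.104, or 62.2% of WT. The remaining 3 were higher in SRAKO: Pde3b, a phosphodiesterase that cGMP inhibits and that is abundant in fat, at 0.383 to 0.443 against 0.447 to 0.847, the peptidase gene Dpp4 at 0.247 to 0.356 against 0.368 to 0.424, and the granin gene Chgb at 0.0704 to 0.0821 against 0.116 to 0.316. Pde3b and Chgb were highest in SRAKO2371, the heart with the most fat cell marker RNA, and so, by a small margin, was Pde5a. The part of fat in these genes was not tested. With the filter removed, limma gave each of the 5 a Benjamini-Hochberg adjusted p of 0.932 (unadjusted 0.0377 for Pde5a and 0.0186 for Prkg1), and at these levels the reads behind a value are few.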

How the data were processed

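Whole-heart RNA of 6 mice was sequenced after oligo(dT) bead selection, per the labels' protocols. The authors deposited FPKM values, 1 column per heart and 1 row per gene or locus. The tools named in the submitters' processing notes are StringTie 1.3.4d, HISAT2 2.0.4, edgeR and cutadapt 1.9, and the build is hg38, although the identifiers are of mouse genes: 99.6% of the Ensembl transcript identifiers, and 31 of 31 for the members, matched GENCODE M21 on GRCm38, from which positions were taken. The read counts behind FPKM are not given. FPKM times length rose in steps read as 1 aligned base (58.0% to 69.4% of 59 to 81 weak rows per heart on whole steps within 0.05), which puts 1 FPKM at 8282 to 13080 aligned bases for each kilobase.

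Groups came from sample titles. The labels do not give litters or batches, so p-values measure the spread between these samples. The 10201 rows that reached 1 FPKM in 3 or more hearts were tested on log2(FPKM + 1), which understates the change of weak genes, with limma 3.58.1 in R 4.3.3 (genotype only, variance trend, two-sided, Benjamini-Hochberg over all rows, threshold 0.05). Of the members 7 were tested; Nppc did not pass. Single values and 3 ratios used exact permutation tests. On data simulated from the 10201 rows of SRAKO against WT, limma called 82.3% of rows shifted by 1 on the log2 scale, 97.2% of those shifted by 2 and 0.107% of unshifted rows. The simulated noise was independent between rows, and many rows were shifted at once, which eases the adjustment. These shares therefore do not hold for the real hearts. There Sra1, with a log2 difference of -1.01, was not called (limma, Benjamini-Hochberg adjusted p = 0.258).

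The members and lists were chosen with earlier results of these data known. Named in the text are all members, the gene with the smallest p per direction in each pathway list, the same for marker lists (in the closing section), defining cell type markers and the 5 nearest profiles of members whose log2 values span more than 1. Pln, Pde9a, Pcsk6, Ide, Gata4, Nkx2-5, Tead1, Kcnj5, Gm13054, Rn7sk and the weak pathway genes were named outside this rule, after their values were seen. So were Esam, Mylk, Myh6, Myh7, Ankrd1 and Acta1. The promoter motifs were chosen with the sequences in view. RefSeq promoter windows were found for 8 of 8 members. Alternatives were other pseudocounts, filters, scalings, weights and left-out hearts. Endothelial sums without Fabp4 were added after seeing the data.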

Additional observations from a re-analysis of the deposited data

How the results depend on the processing

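No paired analysis was possible because the labels give no litters or batches by which hearts could be paired. Of the 7 tested members 0 were called by limma in every setting run. Over the 16 alternatives Npr1 stayed higher in SRAKO (0.13 to 0.28) and Corin lower (-0.18 to -0.04). With 1 heart left out, the log2 difference ran from -0.87 to 0.13 for Nppa, -0.24 to 0.25 for Nppb, -0.057 to 0.15 for Npr2, -0.32 to 0.056 for Npr3 and -0.082 to 0.49 for Furin. Nppa turned positive only without WT2379. FPKM rescaled to equal sums turned Nppb to 0.0020, and without both WT2368 and SRAKO2371 Npr3 was 0.025 and Furin -0.10. The ratio of Nppa to Nppb ran from -0.63 to -0.12, Nppa to atrial markers from -0.43 to 0.20 and Npr3 to Npr1 from -0.52 to -0.13. List medians ran from -0.046 to 0.051 for cGMP signalling, -0.050 to 0.10 for cGMP breakdown, -0.045 to 0.053 for other cyclases, -0.14 to 0.028 for peptide processing, -0.086 to 0.017 for transcription factors and -0.42 to 0.075 for atrial markers.

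Over all rows, 2 were called as reported, 1 with a pseudocount of 0.1, with a filter at an FPKM of 5 or after rescaling to equal sums, and 0 with no filter (919 at an unadjusted p under 0.05) or without both WT2368 and SRAKO2371 (649). With 1 heart left out the number ran from 0 to 6. The cause of these changes was not tested. With 3 hearts a genotype, the 95% intervals give a range for each difference before adjustment and are no limits of detection. Sra1, with an interval from -1.33 to -0.69, was not called either.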

Other observations

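Markers of the cell types of the heart, in lists chosen with earlier results known, had no member called by limma. Values are log2 differences, with WT subtracted from SRAKO, and every Benjamini-Hochberg adjusted p from limma was 0.999. Of each list the gene with the smallest unadjusted p in each direction is named. Among ventricular markers 7 of 11 were higher, with Mpped2 at 0.24 and Fhl2 at -0.23. Conduction system markers had 2 of 5 higher, with Gja5 at -0.19. In the atrial list they were Tbx5 at 0.10 and Kcnj3 at -0.41. Endothelial Fabp4, a fatty acid binding protein gene also made by fat, was at 0.30 and Tie1 at -0.16. Endocardial markers had 3 of 5 higher, with Cytl1 at 0.56 and Plvap at -0.12.

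Fibroblast markers had 7 of 10 lower, with the matrix protein gene Postn at -0.29 and Dcn at 0.19. In smooth muscle and pericytes Myh11 was at 0.42 and Abcc9 at -0.11. Macrophage markers had 8 of 9 higher, with C1qa at 0.30 and Adgre1 at -0.04. The 3 tested neutrophil markers were higher, with Retnlg at 1.52, and their list's summed FPKM was 1.205 to 11.0 in WT and 3.28 to 54.96 in SRAKO. Fat cell markers were higher in 9 of 9, with Pparg at 0.27, and erythroid markers lower in 5 of 5, with Hbb-bt at -0.37. Genes of wall stress and the fetal program other than the peptides had 6 of 9 lower, with Xirp2 at -0.38 and Uchl1 at 0.13. Their summed FPKM was 587 to 1365 in WT, highest in WT2379 as for Nppa, and 569 to 735 in SRAKO. Most of the WT2379 sum was Ankrd1, at 869 FPKM. Acta1 was at 60.7 in WT2379 against 91.7 in WT2368 and 145 in WT2378. Acta1, Myh7 and Uchl1 were not highest in WT2379, and the other measured genes of the list were.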
